A study of Mus musculus with 6 samples.

Results

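Skeletal muscle fibres form when single myoblasts recognise each other, adhere and merge their plasma membranes into a multinucleated myotube. Recognition and adhesion use cadherins, immunoglobulin-like receptors and junctional adhesion molecules at the contact between cells. The merging of the membranes is then driven by the muscle-specific pair myomaker and myomixer, with ferlins and a remodelled actin cortex taking part. The genes described here are 10 of this machinery: *Mymk* and *Mymx* (membrane merger), *Cdh15* and *Cdh2* (cadherins), *Cdon* and *Boc* (cadherin-associated receptors), *Jam2* and *Jam3* (junctional adhesion molecules), *Myof* (a ferlin) and *Nphs1* (nephrin). They were chosen by name from the 55401 genes of the count matrix, and all 10 passed the filter on low counts, as did 17310 genes in all.

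Poly(A) RNA was sequenced from C2C12, an established line of mouse myoblasts that differentiates and fuses once the serum is lowered, 2 d post differentiation, in 3 control and 3 *Phf2* KO libraries. *Phf2* KO cells had been transfected with a pool of 4 plasmids, each holding Cas9, the green marker ZsGreen1 and a guide RNA against *Phf2*, a histone demethylase gene. They were sorted for the marker and expanded without cloning, so that they are a mixed population. The control cells, labelled wild type, received the same plasmid with a guide that matches no mouse sequence and are otherwise the same line in the same medium. The libraries of a group are wells of a single experiment, so p-values measure the spread between wells, and the effect of *Phf2* and other differences between the sorted pools cannot be told apart.

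The total estimated count, which is not a number of reads or fragments, was between 52526109 and 67502788 per library. *Phf2* stood at 102, 95.5 and 105 CPM (TMM-normalized counts scaled to the size of the library) in the control libraries and at 41.1, 37.6 and 38.6 in the *Phf2* KO libraries, that is at 38.8% of the control. All 10 muscle marker genes examined (*Myod1*, *Myog*, *Des*, *Actc1*, *Acta1*, *Ckm*, *Myh3*, *Tnnt1*, *Tnnt3*, *Mylpf*) were detected. Their summed level was 8802 to 10340 CPM in control and 7103 to 7959 CPM in *Phf2* KO, with 6 of 10 past the threshold, all lower, and a median log2 fold change of −0.37. Of all genes tested, 6.48% passed the threshold (adjusted p under 0.05), 3.26% with a lower level in *Phf2* KO. Of 8 genes of undifferentiated or cycling myoblasts edgeR called none, 2 were higher at an unadjusted p under 0.05 and DESeq2 called 1, and their sum was 306 to 345 CPM in control and 376 to 383 CPM in *Phf2* KO. Most of that difference was *Id3*, at a mean of 96.8 CPM in control and 137 CPM in *Phf2* KO (adjusted p = 0.0661 by edgeR), while *Mki67*, *Top2a*, *Cdk1* and *Ccnb1*, genes of dividing cells, had log2 fold changes of 0.007, 0.01, 0.04 and −0.08. The 4 smooth muscle markers summed to 3237 to 3327 and 3594 to 3769 CPM, a sum that is mostly *Acta2*. *Acta2* and *Tagln* passed the threshold and were higher, *Cnn1* had a log2 fold change of −0.52 without overlap (adjusted p = 0.0781 by edgeR, called lower by DESeq2), and *Myh11* was at most 0.429 CPM in any library. The 5 fibroblast markers summed to 4804 to 5266 and 5512 to 6065 CPM, a sum that is mostly *Col1a1*. *Col1a1* passed the threshold and was higher, and *Thy1* was at 0 in every library. *Dcn*, *Pdgfra* and *Lum* had log2 fold changes of 0.21, 0.14 and −0.21 with overlapping groups, and edgeR called none of them. DESeq2 called 2 fibroblast markers higher. Sums of the endothelial, immune, Schwann or neural and adipocyte markers stayed below 7 CPM, with *Adgre1*, *Sox10* and *Plin1* at 0.

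Whether fusion and recognition genes differ in *Phf2* KO cells was compared gene by gene (the quasi-likelihood test of edgeR, with p-values adjusted over all 17310 genes by Benjamini-Hochberg and a threshold of 0.05). *Mymk*, *Mymx*, *Cdh15* and *Jam2* fell to between 70.5% and 84.1% of their control level. The remaining 6 genes did not pass the threshold. None of the 10 was called higher by edgeR, by DESeq2 or at an unadjusted p under 0.05. Of all genes tested, 6.48% passed the threshold and 3.26% passed it with a lower level in *Phf2* KO. The 3 control and 3 *Phf2* KO values did not overlap for these 4 of 10 genes, beside 25.1% of all genes tested. Across the 10 genes, 8 fold changes were below 0 and 2 above, with a median log2 fold change of −0.14, where the median over all genes tested was −0.001. *Mymk* and *Mymx* are also part of a gene list that the study printed from these same libraries, so their direction is not independent evidence. All 10 genes were chosen with earlier results of these data known, so the comparison with all genes tested is not independent evidence either. In bulk RNA, fewer cells of a type and less RNA per cell cannot be told apart. The part that the lower muscle markers have in these differences was not tested.

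**Figure D1:**
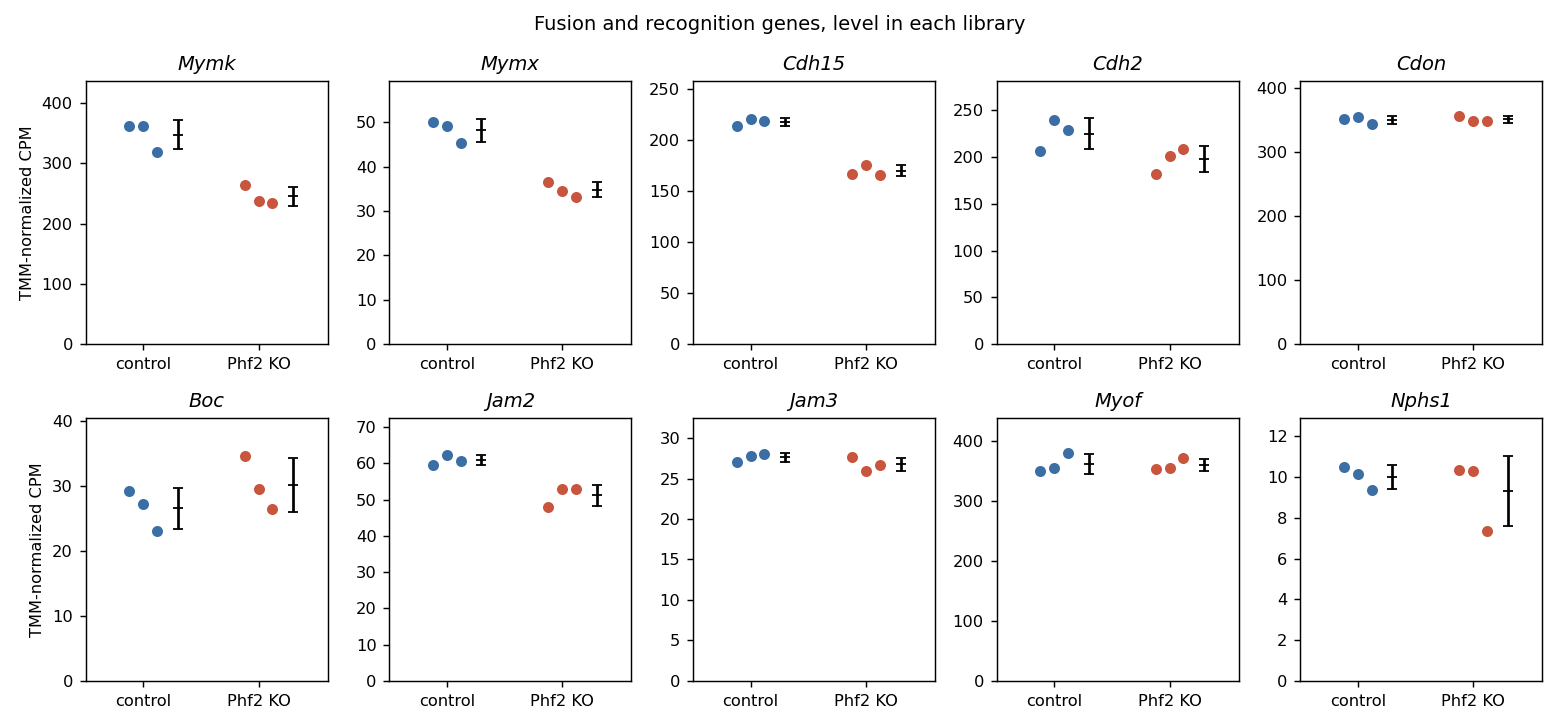
TMM-normalized CPM (linear axes from 0) of the 10 genes in each of the 3 control (blue) and 3 *Phf2* KO (red) libraries, with the group mean and SD in black. The 2 groups are apart for *Mymk*, *Mymx*, *Cdh15* and *Jam2* and share a range for the other 6 genes.

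The largest difference was in the pair that merges the membranes. *Mymk* encodes myomaker, a membrane-spanning protein of the myoblast surface that brings about mixing of the outer membrane layers. The gene runs from 27061636 to 27072179 of chromosome 2, minus strand (GRCm38, GENCODE M21). *Mymk* stood at 361, 362 and 319 CPM in the control libraries and at 263, 237 and 235 CPM in the *Phf2* KO libraries. Every *Phf2* KO library was thus below the lowest control library. The mean fell from 347 ± 24.7 to 245 ± 16.1 CPM (SD, n = 3 per group), or by a log2 fold change of −0.50 (SE 0.059, adjusted p = 0.000298 by edgeR's quasi-likelihood test).

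*Mymx* encodes myomixer, a short membrane peptide that acts with myomaker to open the fusion pore. The gene is compact, with 1132 bases between 45600971 and 45602102 of chromosome 17, minus strand. *Mymx* stood at 50.1, 49.1 and 45.3 CPM in control and at 36.6, 34.6 and 33.2 CPM in *Phf2* KO. Here too the groups did not overlap, and the mean fell from 48.2 ± 2.51 to 34.8 ± 1.70 CPM (SD, n = 3), or by a log2 fold change of −0.47 (SE 0.064, adjusted p = 0.00059 by edgeR).

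*Mymk* and *Mymx* differed by nearly the same factor. The log2 ratio of *Mymk* to *Mymx* was 2.85, 2.88 and 2.82 in the control libraries and 2.85, 2.78 and 2.82 in the *Phf2* KO libraries. These ranges overlap, and the means differed by −0.034 (two-sided exact permutation test, p = 0.4, adjusted p = 0.4 over 5 ratios). In 3 against 3 libraries this test cannot give a p below 0.1. The *Mymk* level was 7.21 times that of *Mymx* in control and 7.04 times in *Phf2* KO in CPM. Per transcript length, in TPM (the share of a library's transcripts, corrected for length and scaled to a fixed total), the ratio was 3.87 and 3.74.

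The profile of each of these genes over the 6 libraries was then set beside those of 10922 other genes whose mean reached 5 CPM. Likeness was the root mean square difference between profiles of log2(CPM + 1), each centred on its own mean, as a description without a test. To *Mymk* the closest profiles were those of *Msln* (mesothelin), at 0.00754, *Jsrp1*, a sarcoplasmic reticulum protein, at 0.0298, *Myl1*, a myosin light chain, at 0.0357, *Mymx* at 0.0367 and *Tnnt2*, a troponin, at 0.042. The median difference of all these genes to *Mymk* was 0.279. To *Mymx* the closest were *Itga7*, a laminin receptor of muscle, at 0.0283, *Msln* at 0.031, *Mymk* at 0.0367, *Ap1g2*, an adaptor of vesicle transport, at 0.0424 and *Stac3*, a protein of the excitation-contraction coupling complex, at 0.0449, beside a median of 0.253. *Mymx* was thus number 4 by likeness to *Mymk*, and *Mymk* number 3 by likeness to *Mymx*. The libraries and the difference between the groups are shared by all these profiles.

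Of the cadherins, calcium-dependent adhesion molecules at the contacts between myoblasts, *Cdh15* fell. *Cdh15* encodes M-cadherin, the muscle cadherin, and lies on the plus strand of chromosome 8 from 122847966 to 122867397. It stood at 213, 220 and 218 CPM in the control libraries and at 167, 176 and 166 CPM in the *Phf2* KO libraries. The groups did not overlap and each varied little. The mean fell from 217 ± 3.78 to 170 ± 5.35 CPM (SD, n = 3), or by a log2 fold change of −0.36 (SE 0.043, adjusted p = 0.000237 by edgeR).

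*Cdh15* is the only gene among the 4 that fell for which RefSeq's table of promoter sequences (GRCm38.p6) held an entry. The table also held *Cdon*, *Myof* and *Nphs1*, but not *Mymk*, *Mymx*, *Cdh2*, *Boc*, *Jam2* or *Jam3*. The 250 bases before the *Cdh15* start held 3 E-boxes, the letters CANNTG that basic helix-loop-helix factors, such as the myogenic regulators, can bind. They are shown because *Cdh15* differed between the groups, with the E-box in capitals between 10 bases on each side, 5′ to 3′ on the plus strand, and lie before the start in this order:
*Cdh15* E-box at chr8:122848128-122848153: gcactgatcaCATATGctgtcactca
*Cdh15* E-box at chr8:122848229-122848254: ggcccacctaCATGTGctgtcactca
*Cdh15* E-box at chr8:122848332-122848357: ccccaccacaCACGTGcagtcccttg
GENCODE places the start of *Cdh15* further upstream, so that the same sites lie in its untranslated part of exon 1. CANNTG is read the same on both strands, and 66.2% of the 32851 promoters of the table hold it at least once in their 250 bases. The special cases CAGCTG (13% of promoters) and CACCTG or CAGGTG (17.2%), the TEAD site CATTCC or GGAATG (12.6%), the MEF2 site (2.92%) and the SRF site (1.47%), searched on both strands, were not among the letters of the *Cdh15* window. The windows of *Cdon*, *Myof* and *Nphs1* held no match to any of these motifs. Those of *Cdon* and *Nphs1* lie inside the gene as GENCODE places it. The *Cdon* window starts at 35451826 and the gene at 35421128, the *Nphs1* window at 30459808 and the gene at 30458315. The bases before the most upstream GENCODE start of *Cdon* and *Nphs1* were therefore not searched. A match is a description of the letters, and binding was not measured here.

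*Cdh2* encodes N-cadherin, the broadly expressed cadherin of myoblasts. It stood at 207, 240 and 229 CPM in the control libraries and at 182, 202 and 209 CPM in the *Phf2* KO libraries. The groups overlapped, since the highest *Phf2* KO library lay above the lowest control library. The means were 225 ± 16.7 and 198 ± 13.9 CPM (SD, n = 3), with a log2 fold change of −0.19 (SE 0.062, 95% confidence interval −0.32 to −0.05, adjusted p = 0.108 by edgeR). With the replicate number as a block, *Cdh2* passed the threshold (adjusted p = 0.0132), as it did with DESeq2 (0.0332) and without control replicate 1 (0.04). The log2 ratio of *Cdh15* to *Cdh2* was 0.042, −0.122 and −0.066 in control and −0.127, −0.199 and −0.334 in *Phf2* KO. All *Phf2* KO libraries lay below all control libraries, by −0.17 on average, which is the smallest p that the exact permutation test allows (p = 0.1, adjusted p = 0.167).

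The cadherin-associated receptors did not pass the threshold. *Cdon* encodes a cell surface receptor of the immunoglobulin superfamily that associates with cadherins and promotes myogenic differentiation. It stood at 352, 355 and 343 CPM in control and at 356, 348 and 348 CPM in *Phf2* KO. The ranges overlapped, and the log2 fold change was 0.003 (SE 0.039, 95% confidence interval −0.08 to 0.09, adjusted p = 0.983 by edgeR). *Boc*, its close relative and binding partner, stood at 29.2, 27.2 and 23.1 CPM in control and at 34.6, 29.6 and 26.4 CPM in *Phf2* KO. These groups overlapped too, and the log2 fold change was 0.19 (SE 0.11, adjusted p = 0.40 by edgeR). Within each pair of libraries with the same replicate number, *Boc* was higher in *Phf2* KO, and with the replicate block its adjusted p was 0.135. The log2 ratio of *Cdon* to *Boc* was 3.59, 3.70 and 3.89 in control and 3.36, 3.56 and 3.72 in *Phf2* KO, with overlapping ranges (exact permutation test, p = 0.3, adjusted p = 0.375). Within each pair of the same replicate number it was lower in *Phf2* KO, and the replicate block gave p = 0.25 by an exact sign-flip test, the smallest that 3 pairs allow.

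*Jam2* and *Jam3* encode JAM-B and JAM-C, immunoglobulin-like proteins that bind each other across the contact between cells. *Jam2* lies on the plus strand of chromosome 16 from 84774123 to 84825928. It stood at 59.6, 62.4 and 60.7 CPM in control and at 47.9, 52.9 and 52.8 CPM in *Phf2* KO, with no overlap. The mean fell from 60.9 ± 1.44 to 51.2 ± 2.87 CPM (SD, n = 3), to 84.1% of control, with a log2 fold change of −0.25 (SE 0.056, adjusted p = 0.016 by edgeR). This call was lost without control replicate 2 (adjusted p = 0.0901) and without *Phf2* KO replicate 1 (0.0527).

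*Jam3*, the partner, stood at 27.0, 27.8 and 28.0 CPM in control and at 27.6, 25.97 and 26.6 CPM in *Phf2* KO. The ranges overlapped, and the log2 fold change was −0.05 (SE 0.068, adjusted p = 0.793 by edgeR). The antisense gene *Gm48796*, which lies within *Jam3*, had counts that summed to 11.8% of those of *Jam3*. Whether the counting used strand is not stated, so reads of the pair may not have been kept apart. The log2 ratio of *Jam2* to *Jam3* was 1.14, 1.17 and 1.11 in control and 0.792, 1.03 and 0.988 in *Phf2* KO. The ranges did not overlap, with a difference of −0.21 and the smallest p that the exact test allows (p = 0.1, adjusted p = 0.167).

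*Myof* encodes myoferlin, a large calcium-binding membrane protein with C2 domains that takes part in the fusion of myoblasts. It stood at 349, 354 and 379 CPM in control and at 352, 355 and 370 CPM in *Phf2* KO. The *Phf2* KO range lay within the control range, with a log2 fold change of −0.006 (SE 0.044, 95% confidence interval −0.10 to 0.09, adjusted p = 0.968 by edgeR). Its relative *Dysf*, dysferlin, which serves membrane repair, fell from 62.3 ± 5.22 to 46.5 ± 1.37 CPM (SD, n = 3), or by a log2 fold change of −0.42 (adjusted p = 0.00132 by edgeR). The log2 ratio of *Myof* to *Dysf* was 2.42, 2.43 and 2.75 in control and 2.91, 2.98 and 2.96 in *Phf2* KO. It was higher in every *Phf2* KO library, by 0.42 on average (exact permutation test, p = 0.1, adjusted p = 0.167). *Dysf* is in the same printed list of the study as *Mymk* and *Mymx*.

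*Nphs1* encodes nephrin, known from the slit diaphragm of kidney podocytes and related to the fusion receptors of insect myoblasts. It had the lowest level of the 10 genes, with 10.5, 10.2 and 9.38 CPM in control and 10.4, 10.3 and 7.34 CPM in *Phf2* KO. The groups overlapped and the log2 fold change was −0.10 (SE 0.14, 95% confidence interval −0.40 to 0.20, adjusted p = 0.774 by edgeR). This level is uncertain. The ribosomal protein pseudogene *Rps12-ps4*, on the opposite strand, shares 183 of its 397 bases with an exon of *Nphs1*, and its summed count was 163% of that of *Nphs1*.

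**Figure D2:**
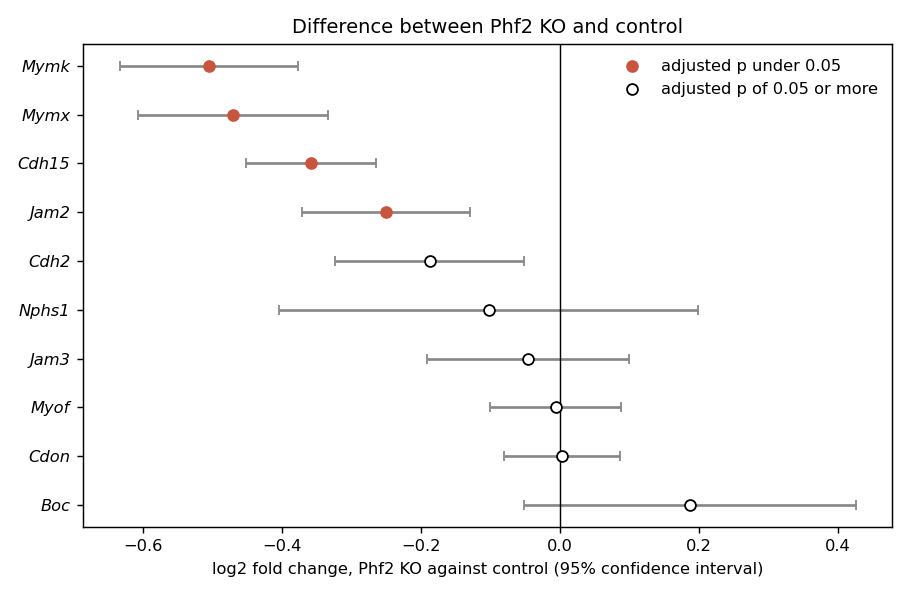
Log2 fold change of *Phf2* KO against control for the 10 genes, with 95% confidence intervals of the edgeR fit. Filled points passed the adjusted threshold of 0.05. The filled points run from −0.50 (*Mymk*) to −0.25 (*Jam2*), and *Cdon*, *Myof* and *Jam3* lie within 0.05 of 0.

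Levels of different genes can be set side by side only per transcript length. In TPM, *Mymk* was highest of the 10 in control, at 542 ± 35.2 (SD, n = 3). It was followed by *Cdh15* (144 ± 2.61) and *Mymx* (140 ± 4.80), whose ranges over the libraries overlapped. *Myof* (113 ± 16.7) and *Cdh2* (100.2 ± 7.35) also overlapped, with *Cdon* (85.5 ± 0.932) below them. *Jam3* (32.2 ± 0.464), *Jam2* (25.0 ± 11.1) and *Boc* (12.8 ± 1.46) could not be put in a strict order, as the range of *Jam2* overlapped both others. *Nphs1* (4.10 ± 0.291) was lowest.

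In *Phf2* KO, *Mymk* remained highest at 385 ± 19.0 TPM, below every control library. *Cdh15* (113 ± 3.68), *Myof* (109 ± 7.83) and *Mymx* (103 ± 6.95) came next, with each range overlapping the next. *Mymx*, which was above *Myof* in every control library, was thus no longer set apart from it. *Cdon* (89.4 ± 3.71) and *Cdh2* (88.8 ± 7.98) overlapped as well. *Jam3* (31.6 ± 0.162) was above *Jam2* (21.8 ± 9.94), which overlapped *Boc* (14.7 ± 1.72), and *Nphs1* was at 3.94 ± 0.659.

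**Figure D3:**
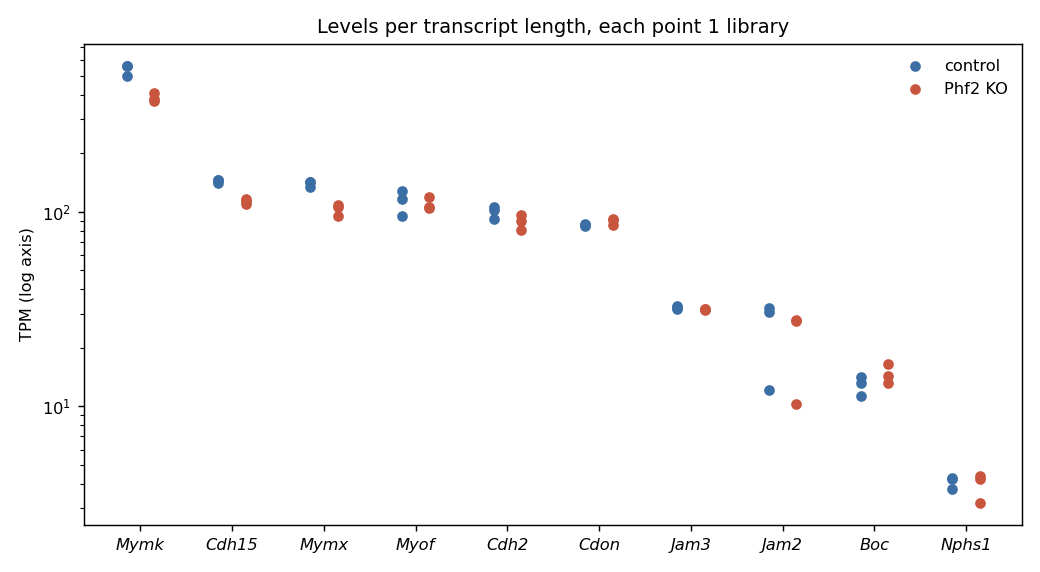
TPM (log axis) of the 10 genes in each control (blue) and *Phf2* KO (red) library, in the order of the control means. *Mymk* lies above all others in both groups, and *Jam2* has 1 library per group, at 12.2 and 10.3 TPM, far below the other 2 of its group.

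The wide spread of *Jam2* in TPM was not seen in its counts. Its TPM was 30.7, 32.1 and 12.2 in control and 10.3, 27.4 and 27.7 in *Phf2* KO, whereas its CPM varied only from 47.9 to 62.4. In control replicate 3 and *Phf2* KO replicate 1, the libraries with low TPM, the deposited assembly divided *Jam2* into 2 loci. These were at 29.5 and 18.7 TPM in the control library and at 24.8 and 17.3 TPM in the *Phf2* KO library. In the other 4 libraries a single locus had the annotated span. With limma on TPM, *Jam2* was not called (adjusted p = 0.901 with a pseudocount of 1 and 0.905 with 0.1), with a log2 fold change of −0.19 and −0.20.

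The assembled loci also differ from the reference rows for *Cdon* and *Myof*. By assembled locus *Cdon* was at 99.6 to 103.8 TPM over the 6 libraries, where the reference rows gave 84.5 to 91.9 TPM. *Myof* was at 118 to 140.1 TPM by locus and at 95.2 to 128 TPM by reference row. Their place in the order above holds for the reference rows only. *Nphs1* had no assembled locus on its strand in any of the 6 libraries.

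**Figure D4:**
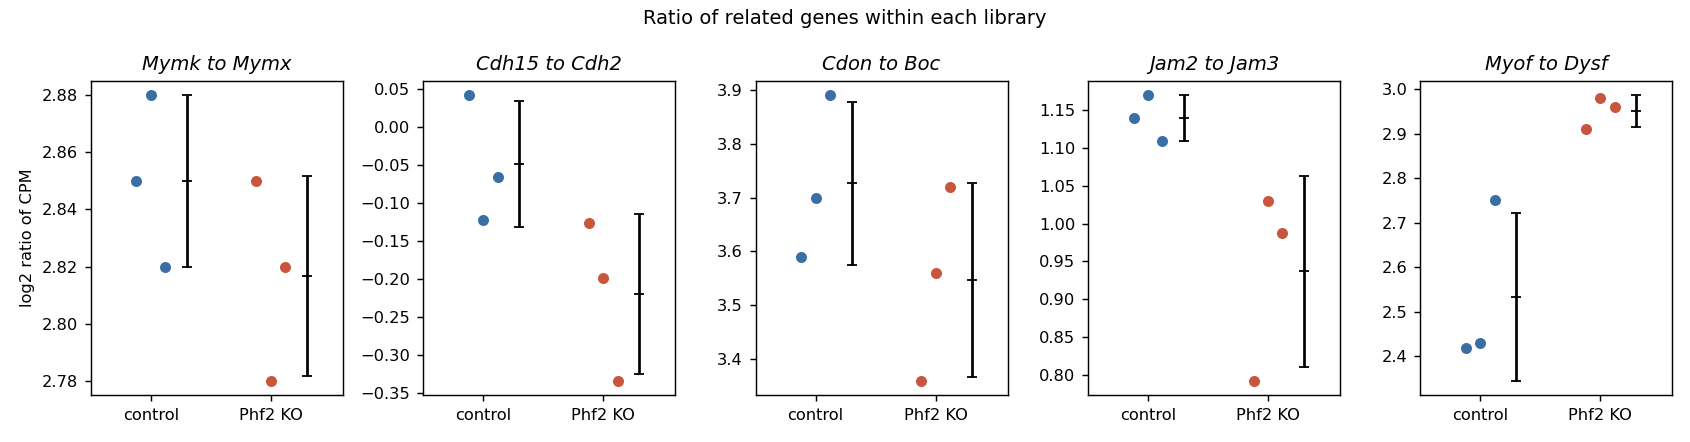
Log2 ratio of CPM of 5 pairs of related genes in each of the 3 control (blue) and 3 *Phf2* KO (red) libraries, with the mean and SD in black. Each panel has its own axis, which does not start at 0. *Cdh15* to *Cdh2*, *Jam2* to *Jam3* and *Myof* to *Dysf* do not overlap between the groups, and *Mymk* to *Mymx* and *Cdon* to *Boc* do.

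Other genes of the fusion machinery were followed in 5 lists of 90 genes, of which 84 were tested. Of these, 4 rose and 7 fell, beside 6.48% of all genes tested, and their median log2 fold change was 0.007. Among 17 tested ferlins and other genes of membrane remodelling, 4 fell and 1 rose by edgeR's quasi-likelihood test, with a median of −0.26. DESeq2 called 6 lower and 1 higher, and edgeR's exactTest 6 lower and 0 higher. At an unadjusted p under 0.05, 8 were lower and 1 higher. The groups did not overlap for 9 of the 17, beside 25.1% of all genes tested. *Cav3*, the muscle caveolin, was at 11.1, 14.0 and 10.5 CPM in control and at 5.54, 3.96 and 4.08 CPM in *Phf2* KO, with no overlap and a log2 fold change of −1.39 (SE 0.16, adjusted p = 0.000181 by edgeR). *Trim72*, which seals membrane wounds in muscle, fell from 77.5 ± 7.18 to 53.3 ± 5.21 CPM (SD, n = 3, log2 fold change −0.54, adjusted p = 0.00274 by edgeR). *Ehd4*, of endocytic recycling, fell from 204 ± 7.04 to 157 ± 10.3 CPM (log2 fold change −0.38, adjusted p = 0.00068), and *Dysf* has been given above. The gene that rose was *Anxa5*, whose product binds phosphatidylserine, with a log2 fold change of 0.20 (adjusted p = 0.0185).

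Among 12 tested genes of cadherin, integrin and immunoglobulin adhesion, 1 rose and 1 fell by edgeR, with a median log2 fold change of 0.08. DESeq2 called 3 higher and 2 lower, and 5 were higher and 2 lower at an unadjusted p under 0.05. The groups did not overlap for 9 of the 12, beside 25.1% of all genes tested. *Cdh11*, the cadherin of mesenchymal cells, rose from 144, 128 and 131 CPM in control to 200.2, 189 and 195 CPM in *Phf2* KO. This is opposite in direction to *Cdh15*, without overlap and with a log2 fold change of 0.54 (SE 0.051, adjusted p = 4.63e-05 by edgeR). *F11r*, which encodes JAM-A, fell from 15.3 ± 0.404 to 11.9 ± 0.715 CPM (SD, n = 3, log2 fold change −0.36, adjusted p = 0.0343 by edgeR). *Ctnnb1*, the cadherin-binding beta-catenin, was not called by edgeR (log2 fold change 0.11, adjusted p = 0.0953), nor was the integrin *Itgb1* (0.06, adjusted p = 0.339). Both were higher in *Phf2* KO without overlap of the groups. The integrin *Itga4*, at a mean of 3.04 CPM in control and 4.51 CPM in *Phf2* KO, did not overlap either. It was not called by edgeR (log2 fold change 0.57, adjusted p = 0.0734).

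Of 15 tested partners of CDON and BOC, edgeR called none lower (also 0 by DESeq2 and at an unadjusted p under 0.05) and 1 higher, against 2 by DESeq2, 0 by edgeR's exactTest and 3 at an unadjusted p under 0.05. The gene called higher by the quasi-likelihood test was *Neo1*, the netrin receptor neogenin, with a log2 fold change of 0.16 (adjusted p = 0.0332), and the list median was 0.05. Of 10 tetraspanins and ADAMs, membrane organisers and proteases of the cell surface, *Cd82* fell from 232 ± 9.60 to 190.1 ± 8.74 CPM (SD, n = 3, log2 fold change −0.29, adjusted p = 0.00293 by edgeR). None of them rose by edgeR or DESeq2, with 2 higher at an unadjusted p under 0.05. DESeq2 called 2 lower, and 3 were lower at an unadjusted p under 0.05. The groups did not overlap for 5 of these 10, beside 25.1% of all genes tested. Of 30 genes of actin remodelling at the fusion site, 28 did not pass the threshold by edgeR. DESeq2 called 3 higher and 1 lower, and 7 were higher and 1 lower at an unadjusted p under 0.05. The groups did not overlap for 10 of the 30, beside 25.1% of all genes tested. *Dock5*, an activator of RAC, rose by a log2 fold change of 0.24 (adjusted p = 0.00697) and *Trio*, another such activator, fell by 0.22 on the log2 scale (adjusted p = 0.0136). Several of these calls were lost when 1 library was left out. *Neo1* and *F11r* lost theirs whichever of the 6 libraries was left out, with log2 fold changes that stayed between 0.14 and 0.17 and between −0.41 and −0.33. The call was also lost for *Dock5* without *Phf2* KO replicate 2, *Trio* without control replicate 2 or *Phf2* KO replicate 2 or 3, and *Anxa5* without control replicate 1 or 2 or *Phf2* KO replicate 2 or 3.

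**Figure D5:**
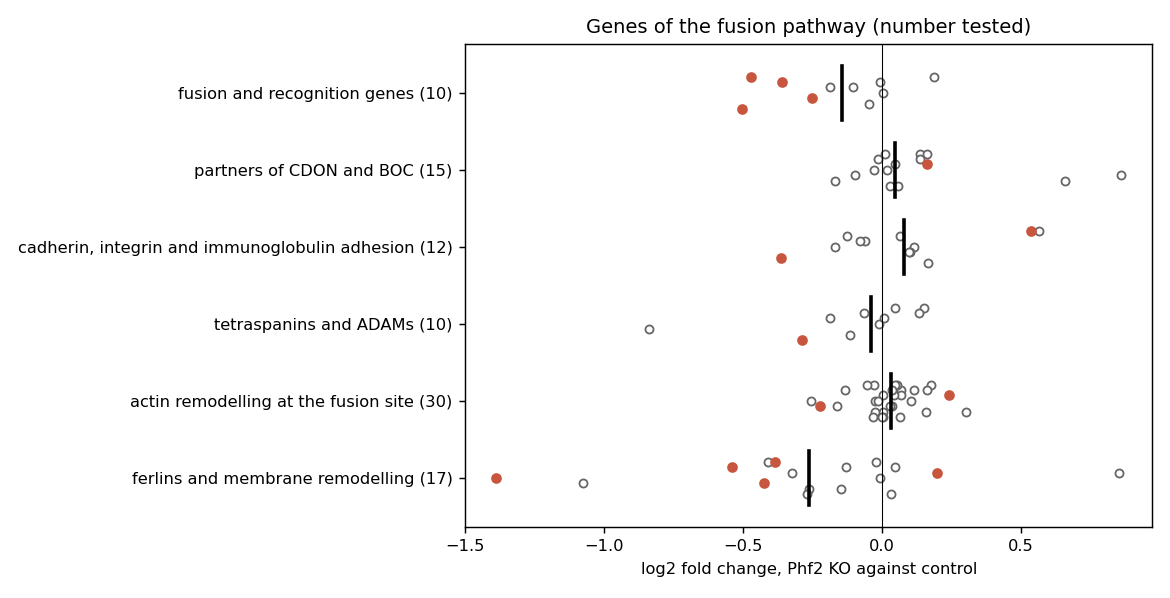
Log2 fold change of *Phf2* KO against control for the 10 fusion and recognition genes and for 5 lists of the fusion machinery, each point 1 gene and the black bar the median of the list. Filled points passed the adjusted threshold of 0.05. Medians lie between −0.26 (ferlins and membrane remodelling) and 0.08 (adhesion), and most points of the actin list lie near 0.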

How the data were processed

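The authors sequenced poly(A) RNA with a directional kit (paired reads of 150 bp), aligned reads to mm10 with HISAT2 (version not given in the sources used here) and counted with StringTie. The deposited matrix holds these estimated counts as whole numbers, which follow covered bases divided by 75 (median 74.98 to 74.99 per count). A count thus stands for less than a whole read of 150 bp. With the counts divided by 4, edgeR called 1286 genes, against 1122. It then called 15 genes of the pathway lists, against 11, and 4 of the 10 genes, the same number. The deposited TPM, a signal scaled by the authors within each library, and the deposited coverage score of each gene (used only to check the unit of the counts) came from tables of single libraries, of which the reference rows were used.

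Counts were analysed with edgeR 4.0.16 in R 4.3.3: filterByExpr (minimum count 10), TMM, quasi-likelihood test, Benjamini-Hochberg adjustment over 17310 genes. The code was run on counts simulated from edgeR's own fit to these data, without a link between libraries of the same replicate number. That run checks the code only and does not bear on the calls made here. The study used edgeR's exactTest, which is among the alternatives, with DESeq2 1.42.0 and limma 3.58.1. Ratios were compared by exact permutation.

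The 10 genes and the lists were chosen with earlier results of these data known. Named genes are *Phf2*, the 10 genes, genes overlapping them, up to 5 called genes per list, and the 5 closest profiles to *Mymk* and *Mymx*. *Ctnnb1*, *Itgb1* and *Itga4*, and the marker genes given with values, were named after their values were seen.

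The sample titles give replicate numbers but do not say what libraries of the same number share. Libraries that share a number deviated together from their group means, with correlations of 0.25, 0.236 and 0.158 across 10923 genes (which are not independent replicates). Libraries of different numbers reached −0.0131 at most. Deviations within a group cancel out, so this lower value is not separate evidence of pairing. The main fit has no replicate block, as the study's test had none. Promoters came from RefSeq (GRCm38.p6) and coordinates from GENCODE M21 (GRCm38, the assembly of mm10).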

Additional observations from a re-analysis of the deposited data

How the results depend on the processing

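The count of 4 fusion and recognition genes past the threshold was between 3 and 5 in all 19 alternatives run, and *Mymk*, *Mymx* and *Cdh15* kept their direction and call in all 18 that refit them. With the replicate block, 5 of the 10 genes were called (*Cdh2* added), as were 16 genes of the pathway lists. The block changed no other call among the 10 genes and the pathway genes named. The 5 ratios could not be called with or without it. Their smallest possible p is 0.1 by the exact permutation test and 0.25 by the exact sign-flip test. Over all genes, 1122 passed the threshold, against 158 and 178 with limma on log2(TPM + 1) and log2(TPM + 0.1) and 472 at an adjusted p under 0.01. Leaving out 1 library gave 468 to 1039, with 468 when control replicate 2 was dropped and 577 and 613 when replicates 2 and 3 of *Phf2* KO were dropped. Of the pathway lists, 11 genes passed, against 20 with DESeq2, 2 with either limma fit on TPM, 7 at the stricter threshold and 6 to 16 with 1 library left out (7, 6 and 7 without the same 3 libraries). The cause of the lower counts on TPM was not tested, and a fit on fewer libraries has fewer residual degrees of freedom. Directions near 0 were not stable: *Cdon* was at −0.00086 with no filter, −0.00057 with a CPM of at least 1, and −0.013 to 0.013 with 1 library left out, *Myof* at −0.032 to 0.029 and *Nphs1* at −0.18 to 0.045, none of them called. The 5 ratios kept their direction in all alternatives, but many of these could not have changed it. The replicate block leaves the mean difference as it is. For ratios whose groups did not overlap, leaving out 1 library cannot reverse the direction. On TPM, the ratio of *Jam2* to *Jam3* differed by −0.179 (exact permutation test, p = 0.5). The precision differed by gene: *Boc* (0.19, SE 0.11) was not called, while *Neo1*, with a smaller fold change (0.16, SE 0.042), was.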
